A study of Homo sapiens with 8 samples.

Results

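Interferon stimulated genes were examined in endothelial cells made from WTC-TJP1, an established line of human induced pluripotent stem cells. The list held 44 genes, headed by the marker genes ISG15, MX1 and IFI6, and each was found in the deposited gene table by its gene name. All 44 were among the 30386 genes of that table. RNA sequencing with poly-A selection was compared between cells labelled iEC (endothelial cells, 4 samples) and cells labelled iREC (retinal endothelial cells, 4 samples), each group lettered C, D, E and F and taken at passage 1. All 8 samples came from the same stem cell line, and no added interferon or other agent is named in the labels. The agents that set the retinal differentiation apart are not given in the sources used here, nor is it stated that the letters are separate differentiations, so p-values measure only the spread between these samples, which may be technical.

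Type I interferons bind the receptor chains IFNAR1 and IFNAR2, and the kinases JAK1 and TYK2 then pass the signal on by phosphorylation. STAT2 and IRF9 take part in a complex that binds the interferon stimulated response element (ISRE) in the promoters of its target genes, whereas interferon gamma acts at another element, GAS. The targets block virus entry, degrade viral RNA, sense nucleic acids or feed back on the pathway, and endothelial cells are among the cell types that respond to both kinds of interferon.

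The iEC libraries held 14877502 to 16971865 counts and the iREC libraries 13739364 to 15987839. Values are given as CPM, which are counts scaled to the size of each library, and a count of 3, used as the floor of detection, was 0.178 to 0.215 CPM in iEC and 0.183 to 0.214 CPM in iREC, for counting error only. The endothelial marker PECAM1 was present in every sample, at 1927 to 2605 CPM in iEC and 493 to 855 CPM in iREC, as was CDH5, at 1098 to 1642 and 517 to 983 CPM. Both were called lower in iREC (log2 fold changes -1.57 and -0.76, adjusted p 0.000632 and 0.0298). Of the 12 endothelial markers listed, 5 were called lower and 3 higher in iREC, beside 11.7% and 13.2% of all genes tested. Their sum was 7552 to 9574 CPM in iEC and 4575 to 10268 CPM in iREC, so the groups overlapped. Of 34 genes tested on 5 lists of cell type markers, 19 were called, 10 higher and 9 lower in iREC, beside 25% of all genes tested. The sum of 12 mural and mesenchymal markers was 235 to 491 CPM in iEC and 631 to 4575 CPM in iREC. The part of these markers in the group differences was not tested. Sample iREC F stood apart, with the highest sums of these mural and mesenchymal markers (4575 CPM, against 631 to 1271 in the other iREC samples) and of 8 epithelial markers (4936 CPM, against 307 to 1127), and the lowest sum of 12 endothelial markers (4575 CPM, against 7898 to 10268). In bulk samples such as these, fewer cells of a type and less RNA per cell cannot be told apart.

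The promoter sequences of 7 members are shown first, because the ISRE is a feature of these genes that does not depend on the samples. They come from RefSeq (GRCh38.p14), run 5′ to 3′ on the strand of the gene, and capitals mark matches to the ISRE core, which reads GAAA, any 2 bases and GAAA. In ISG15 and BST2 the capitals are 2 overlapping matches, and IFI6 has 3 separate ones. The stretches of ISG15, IFI6, BST2, EPSTI1 and SAMD9 lie before the RefSeq gene start and outside every exon of their gene in GENCODE 29. For MX1, whose match lies in its first exon, and for ISG20, whose match lies in an exon of another of its transcripts, only 30 bases are printed.
ISG15 (chr1:1013337-1013422, plus strand): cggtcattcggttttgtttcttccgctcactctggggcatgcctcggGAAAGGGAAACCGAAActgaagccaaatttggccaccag
IFI6 (chr1:27672219-27672352, minus strand): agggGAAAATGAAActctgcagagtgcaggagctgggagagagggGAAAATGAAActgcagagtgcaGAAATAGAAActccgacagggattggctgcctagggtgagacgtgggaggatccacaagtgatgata
BST2 (chr19:17405649-17405790, minus strand): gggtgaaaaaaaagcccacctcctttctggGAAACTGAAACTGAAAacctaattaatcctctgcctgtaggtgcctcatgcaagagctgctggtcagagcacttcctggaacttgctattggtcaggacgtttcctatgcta
EPSTI1 (chr13:42992272-42992401, minus strand): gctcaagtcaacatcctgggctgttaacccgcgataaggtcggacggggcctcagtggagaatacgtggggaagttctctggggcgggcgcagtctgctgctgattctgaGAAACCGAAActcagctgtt
MX1 (chr21:41420559-41420588, plus strand): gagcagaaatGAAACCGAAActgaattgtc
ISG20 (chr15:88638937-88638966, plus strand): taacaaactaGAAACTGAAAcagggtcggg
SAMD9 (chr7:93118024-93118139, minus strand): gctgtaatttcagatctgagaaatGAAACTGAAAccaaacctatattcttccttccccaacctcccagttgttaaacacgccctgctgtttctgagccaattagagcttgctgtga

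RefSeq windows from 250 bases before to 50 bases after a gene start were at hand for 34 of the 44 members. On either strand, the ISRE in its longer form, the core followed by CT, was found in 15 of the 34 (44.1%). Among all 27305 genes with such windows the share was 0.322%, or 0.273% of 35116 windows. The members were listed because they are interferon targets, so a high share follows from the choice of the list and carries no test. DTX3L and PARP9 are also counted for the same bases. The core alone, which every longer match contains, was found in 23 of 34 members (67.6%) and in 4.38% of all genes. GAS, searched as TTC, any 3 bases and GAA, was found in 11 of 34 members (32.4%) and in 9.38% of all genes. In EPSTI1 and in BST2, for example, it overlaps the ISRE match. Among the sequences printed, ISG15, IFI6, BST2, EPSTI1 and MX1 hold the longer form, with its first base at position -107 in ISG15, at -156, -115 and -93 in IFI6, at -130 in BST2, at -50 in EPSTI1 and at 12 in MX1. ISG20 and SAMD9 hold the core only, from position -69 and from position -136. A match describes the letters of a window and does not show that a factor was bound there.

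**Figure D1:**
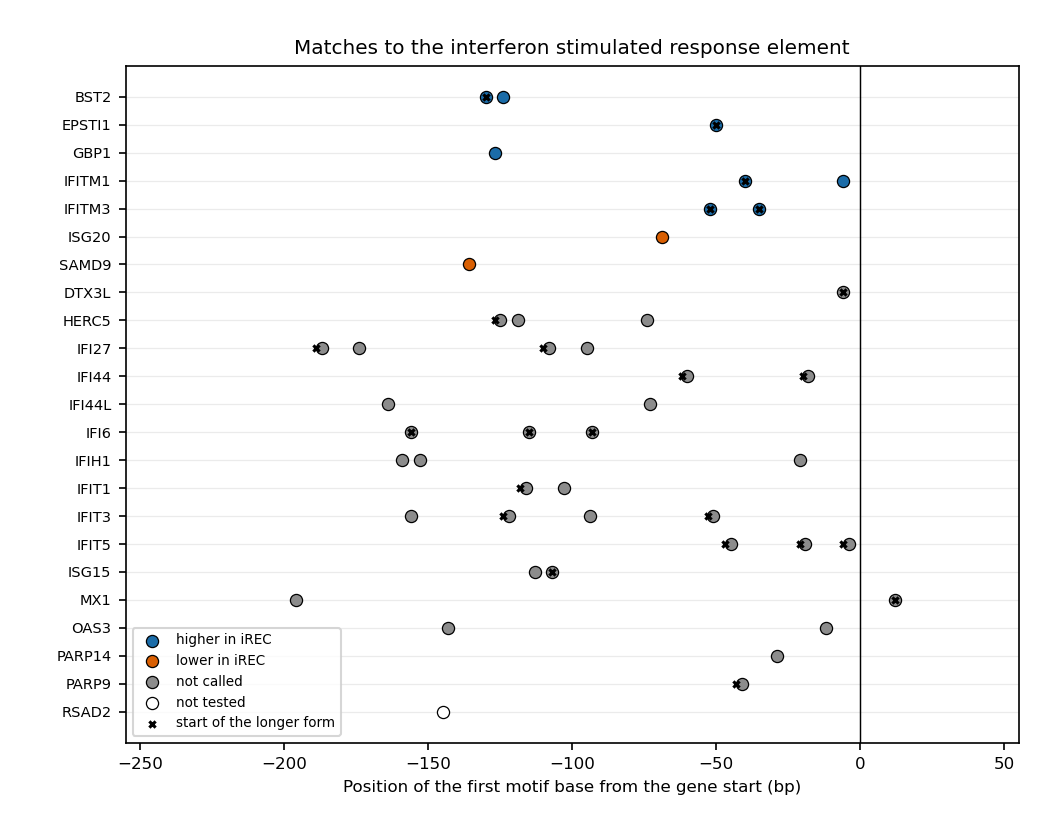
Each row is a member with a match to the ISRE and each mark a match, plotted by the position of its first base from the RefSeq gene start, in base pairs. Most matches lie before the start, and those of DTX3L, MX1, IFITM1 and IFIT5 include positions next to or after it.

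Of the 44 members, 39 passed the filter on low counts and were tested for a difference between iREC and iEC with edgeR's quasi-likelihood test. Calls were made where the p-value, adjusted over all 15330 genes tested, was under 0.05. Of the 39 members, 13 were called (33.3%), beside 25% of all genes tested. Higher in iREC were 7 (17.9%, beside 13.2% of all genes), namely IFITM1, IFITM2, IFITM3, BST2, GBP1, GBP2 and EPSTI1. Lower were 6 (15.4%, beside 11.7%), namely USP18, DDX58, IFI16, ISG20, SAMD9 and SAMD9L. The 3 markers ISG15, MX1 and IFI6 were not called. The median log2 fold change of the 39 was -0.012, beside 0.020 over all genes, and the median size of the change without its sign was 0.77 on the log2 scale, beside 0.39. Values of the groups did not overlap for 12 of the 39 members (30.8%), beside 29.1% of all genes. Without iEC E, 7 of the 39 were called, beside 18.3% of all genes tested in that fit, and without iREC D 8, beside 17%. All of these were among the 13. Without iEC F, 11 members were called higher and 3 lower, beside 12.7% and 10.3% of all genes tested in that fit.

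**Figure D2:**
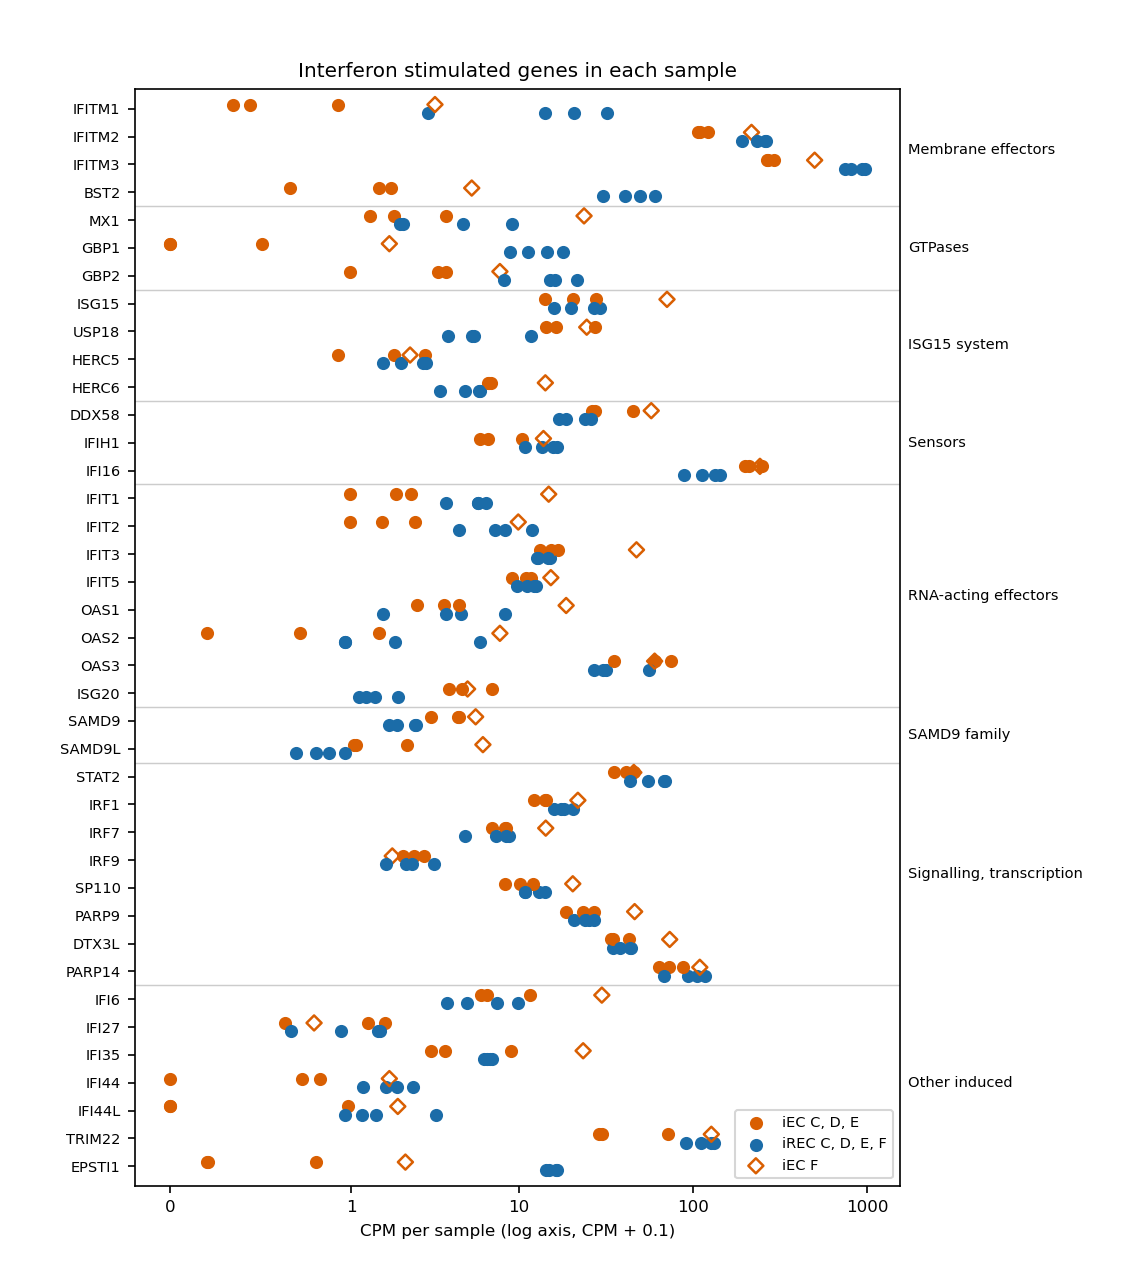
The level of each tested member, in CPM on a log axis, is plotted for the 4 iEC and the 4 iREC samples, with members grouped by role. The IFITM genes, BST2, GBP1, GBP2 and EPSTI1 lie further to the right in iREC, and for most other members one iEC point, iEC F, lies to the right of the other iEC points.

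All 4 members that act at membranes were called higher in iREC, beside 13.2% of all genes tested, with a median log2 fold change of 2.70. The groups overlapped for IFITM1 and IFITM2. The IFITM genes lie side by side on chromosome 11 (GENCODE 29, GRCh38), IFITM2 at chr11:307631-315272, IFITM1 at chr11:313506-315272 and IFITM3 at chr11:319669-327537. IFITM3, which stops viruses from fusing with endosomal membranes, was the most abundant member. Its level per length was 247 ± 89.9 FPKM in iEC and 632 ± 74.6 FPKM in iREC (SD, n = 4 each). In iEC C, D, E and F it stood at 268, 269.7, 294 and 500.2 CPM and in iREC C, D, E and F at 747, 936, 976 and 811 CPM. Every iREC sample lay above every iEC sample, and the highest iEC sample was iEC F. The log2 fold change was 1.38 ± 0.22 (SE), with an adjusted p of 0.00199. IFITM3 made up 24.6% to 27.0% of the summed CPM of the 44 members in iEC and 43.7% to 46.9% in iREC.

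IFITM2, a close relative with the same activity in endosomes, was measured at 109, 107, 122 and 217 CPM in iEC C to F and at 191, 258, 262 and 234 CPM in iREC C to F. The sample iEC F lay above iREC C, so the groups overlapped. iREC differed from iEC by 0.77 ± 0.24 (SE) on the log2 scale, with an adjusted p of 0.0414. Leaving out iEC C, D or E or iREC D, E or F ended this call, with adjusted p-values from 0.0583 to 0.127, and scaling by DESeq2 size factors gave 0.0509.

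IFITM1, the family member that resides mainly at the cell surface, was close to the floor in iEC C and D. Its values were 0.130, 0.190, 0.8287 and 3.22 CPM in iEC C to F and 2.94, 20.6, 14.1 and 32.3 CPM in iREC C to F. The highest iEC value, iEC F, lay just above the lowest iREC value, iREC C. This gave a log2 fold change of 4.02 ± 0.99 (SE), with an adjusted p of 0.0163, and without iEC E the adjusted p was 0.0561. Without iEC F the log2 difference was 5.45. In GENCODE 29, IFITM1 and IFITM2 share 351 exon bases on the same strand, and IFITM2 had about 20.4 times as many reads, so the assignment of reads between the pair is uncertain. IFITM1 counts were 0.119% to 1.48% of IFITM2 counts in iEC and 1.54% to 13.8% in iREC.

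BST2, or tetherin, which holds budding virus particles on the cell surface, gave 0.390, 1.77, 1.48 and 5.30 CPM in iEC C to F. In iREC C to F it gave 30.6, 49.4, 60.3 and 40.6 CPM. All iREC samples lay far above all iEC samples, among which iEC F was the highest. On the log2 scale the fitted difference was 4.35 ± 0.61 (SE), a 20.4-fold difference, with an adjusted p of 0.00101. Without iEC F the log2 difference was 5.20. Per length, BST2 went from 2.01 ± 1.97 FPKM in iEC to 39.7 ± 10.9 FPKM in iREC (SD, n = 4 each), the level of ISG15 in iEC being 35.6 ± 28.5 FPKM.

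Of the dynamin-like GTPases, 3 of 4 were tested and both guanylate binding proteins were called higher, beside 13.2% of all genes tested. GBP1, which coats intracellular pathogens and is strongly induced by interferon gamma, had no read in iEC C and D, 0.237 CPM in iEC E and 1.72 CPM in iEC F. In iREC C to F it reached 8.90, 14.4, 11.2 and 17.8 CPM. The groups were far apart, and nearly all GBP1 reads of the iEC group came from iEC F. The log2 fold change was 4.77 ± 0.98 (SE), with an adjusted p of 0.00726. Without iEC F the fitted value was 7.17, which then rests on 4 reads in the iEC group, and with limma-voom it was 6.42. GBP2, of the same family, was measured at 0.975, 3.73, 3.37 and 7.73 CPM in iEC C to F and at 16.0, 14.99, 21.5 and 8.19 CPM in iREC C to F. The groups did not overlap, but iEC F and iREC F lay next to each other. iREC differed from iEC by 1.94 ± 0.53 (SE) on the log2 scale, with an adjusted p of 0.0265. This call ended without iEC D or E or iREC C, D or E, with adjusted p-values from 0.0502 to 0.0795. It also ended with the sample letter as a block (adjusted p 0.0517).

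MX1, which traps viral nucleocapsids, was not called. It was measured at 1.30, 1.83, 3.73 and 23.7 CPM in iEC C to F and at 9.09, 1.998, 2.08 and 4.72 CPM in iREC C to F. The groups overlapped, with iEC F above every other sample of either group. This gave a log2 fold change of -0.77 ± 0.91 (SE), with an adjusted p of 0.579, and without iEC F its sign turned, at 0.95. MX2 did not pass the filter, with 0 to 3 counts in iEC samples and 0 to 17 in iREC samples.

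The ISG15 system attaches the ubiquitin-like protein ISG15 to other proteins, with HERC5 as a ligase and USP18 as the enzyme that removes it. USP18, which also holds back signalling at the type I receptor, was lower in iREC. It was the 1 member called among the 4 of this group, beside 25% of all genes tested. It was measured at 16.3, 14.2, 27.5 and 24.6 CPM in iEC C to F and at 11.8, 5.28, 5.44 and 3.86 CPM in iREC C to F. No iREC sample reached the lowest iEC sample, iEC D. On the log2 scale the fitted difference was -1.65 ± 0.37 (SE), with an adjusted p of 0.0112. USP41, a nearly identical copy, was listed at no more than 0.0714 CPM in any sample, and reads could be split between the copies.

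ISG15 was measured at 20.4, 14.03, 27.9 and 71.1 CPM in iEC C to F and at 29.3, 20.1, 16.0 and 26.9 CPM in iREC C to F. All iREC values lay within the range of the iEC values, whose highest, in iEC F, lay far above the rest. The log2 fold change was -0.53 ± 0.46 (SE), with an adjusted p of 0.437, and it was 0.14 without iEC F. HERC5 and HERC6 were not called, and HERC6 was 14.2 CPM in iEC F, against 6.63 to 6.87 CPM in the other iEC samples.

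Of the 3 sensors of foreign nucleic acid, 2 were lower in iREC, beside 11.7% of all genes tested. IFI16, which binds DNA, was the third most abundant member per length, at 42.2 ± 5.10 FPKM in iEC and 22.2 ± 4.33 FPKM in iREC (SD, n = 4 each). Its values were 209, 248.7, 199 and 243 CPM in iEC C to F and 88.9, 142, 133 and 113 CPM in iREC C to F. The groups were well apart and iEC F was not the highest iEC sample. iREC differed from iEC by -0.91 ± 0.16 (SE) on the log2 scale, with an adjusted p of 0.00349. DDX58, which encodes the RNA sensor RIG-I, was measured at 27.6, 26.4, 45.2 and 57.7 CPM in iEC C to F and at 17.1, 23.8, 18.7 and 25.9 CPM in iREC C to F. The groups did not overlap, but iEC D and iREC F were nearly equal. This gave a log2 fold change of -0.88 ± 0.27 (SE), with an adjusted p of 0.0424. This call ended without iEC E or F or iREC C, D or E, with adjusted p-values from 0.0802 to 0.112, and with limma-voom. IFIH1, the RNA sensor MDA5, was not called, with a log2 fold change of 0.63 and an adjusted p of 0.148.

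Of the effectors that bind or degrade RNA, 8 of 9 were tested and 1 was called, beside 25% of all genes tested. ISG20, an exonuclease acting on single-stranded RNA, was measured at 3.90, 6.95, 4.62 and 5.01 CPM in iEC C to F and at 1.24, 1.93, 1.40 and 1.11 CPM in iREC C to F. Every iREC sample was below every iEC sample. On the log2 scale the fitted difference was -1.84 ± 0.30 (SE), with an adjusted p of 0.0022. The IFIT genes, whose proteins bind viral RNA, and the OAS genes, whose products sense double-stranded RNA, were not called. IFIT1 was measured at 0.975, 1.90, 2.31 and 14.8 CPM in iEC C to F and at 5.76, 5.78, 3.73 and 6.42 CPM in iREC C to F. Its iREC values lay in a narrow band between iEC F and the other iEC samples. For IFIT1 the log2 fold change was 0.12 ± 0.74 (SE), with an adjusted p of 0.923. OAS2 was spread over both groups, at 0.455, 0.0632, 1.48 and 7.73 CPM in iEC C to F and at 5.89, 1.86, 0.916 and 0.917 CPM in iREC C to F, and its log2 fold change was -0.012 ± 1.09 (SE), with an adjusted p of 0.995. IFIT2 shares 65 exon bases with LIPA on the other strand, which had 120.5 to 247 CPM, and the use of strand in counting is not given in the sources used here, so IFIT2 values are uncertain. OASL did not pass the filter, with at most 1 count in any sample.

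SAMD9 and SAMD9L, neighbouring genes whose products restrict poxviruses, were both called lower, beside 11.7% of all genes tested. SAMD9 was measured at 4.42, 3.03, 4.44 and 5.58 CPM in iEC C to F and at 1.70, 2.50, 2.44 and 1.90 CPM in iREC C to F, with no overlap. SAMD9L was measured at 1.04, 1.07, 2.19 and 6.16 CPM in iEC C to F and at 0.589, 0.428, 0.916 and 0.721 CPM in iREC C to F. For SAMD9L the groups were separated by little and iEC F was far above the rest. The log2 fold change of SAMD9 was -1.03 ± 0.28 (SE), with an adjusted p of 0.0261, and that of SAMD9L was -1.95 ± 0.63 (SE), with an adjusted p of 0.0481. Neither call was kept without iEC E or F or iREC C or D, with adjusted p-values from 0.0533 to 0.126. With the sample letter as a block, both calls ended (adjusted p 0.0682 for SAMD9 and 0.0548 for SAMD9L). The SAMD9 call also ended without iEC C and with no filter (adjusted p 0.0533). The SAMD9L call also ended without iREC E or F, with DESeq2 size factors (0.0503) and with limma-voom (0.121), and without iEC F its log2 fold change was -1.11. RSAD2, which makes an antiviral nucleotide, and CMPK2, its neighbour, did not pass the filter. RSAD2 had no read in iEC and at most 1 in an iREC sample, and CMPK2 had no read in iEC and at most 2 in an iREC sample.

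None of the 8 members that carry the signal or regulate transcription was called by edgeR, DESeq2 or limma-voom. Of all genes tested, edgeR called 25%. In edgeR's test 1 of the 8 had an unadjusted p under 0.05. That gene, STAT2, was measured at 35.4, 45.8, 41.1 and 45.8 CPM in iEC C to F and at 69.6, 55.5, 68.5 and 43.3 CPM in iREC C to F. Samples iREC C, D and E exceeded the iEC range and iREC F lay within it. The log2 fold change was 0.49 ± 0.17 (SE), with an adjusted p of 0.0644. IRF9, the partner of STAT2 in the ISRE complex, was low in every sample, at 1.64 to 3.18 CPM, and shares 1838 exon bases with a second gene on the same strand. DTX3L and PARP9, which overlap each other on opposite strands by 217 exon bases, had log2 fold changes of -0.20 and -0.25.

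Among 8 other induced genes, 7 were tested and EPSTI1 alone was called, beside 25% of all genes tested. EPSTI1, named for its induction in epithelial cells by stromal cells, was measured at 0.0650, 0.0632, 0.592 and 2.15 CPM in iEC C to F, which is 1, 1, 10 and 30 counts. In iREC C to F it was 16.4, 14.3, 14.8 and 16.5 CPM. The iREC samples were nearly equal and all far above iEC, where iEC F was the highest. iREC differed from iEC by 4.45 ± 0.81 (SE) on the log2 scale, a 21.9-fold difference, with an adjusted p of 0.00383. Without iEC F the log2 difference was 5.93, and with limma-voom 5.56. IFI6, a mitochondrial and endoplasmic reticulum protein that limits cell death, was measured at 6.501, 6.005, 11.5 and 29.99 CPM in iEC C to F and at 9.81, 7.42, 3.79 and 4.98 CPM in iREC C to F. The groups overlapped. For IFI6 the log2 fold change was -1.05 ± 0.54 (SE), with an adjusted p of 0.186, and it was -0.31 without iEC F. TRIM22, an E3 ligase with antiviral activity, was measured at 28.9, 30.1, 72.3 and 128 CPM in iEC C to F and at 127, 112, 132 and 90.9 CPM in iREC C to F. Its iEC values spanned from far below the iREC range to within it. For TRIM22 the log2 fold change was 0.84 ± 0.44 (SE), with an adjusted p of 0.198. IFI44 was not called (log2 fold change 1.34, adjusted p 0.237), nor was IFI44L (1.24, adjusted p 0.42), and XAF1 did not pass the filter, with 0 to 4 counts a sample.

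The calls can be set beside the promoter matches given above. Of the 7 members called higher, 5 had a promoter window, and 4 of these held the longer ISRE form (BST2, EPSTI1, IFITM1 and IFITM3) and all 5 the core. Of the 6 called lower, 4 had a window, none held the longer form and 2 held the core. Among the 22 members with a window that were tested and not called, 11 held the longer form. These are counts of few genes and carry no test.

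Per length, the order of the most abundant members over all samples was IFITM3, IFITM2, IFI16, ISG15, BST2, TRIM22, IFI6 and IFITM1. In iEC, IFITM2 stood at 89.9 ± 36.6 FPKM, and IFI16 (42.2 ± 5.10) and ISG15 (35.6 ± 28.5) did not differ beyond their spread. In iREC, BST2 (39.7 ± 10.9 FPKM) came after IFITM3 and IFITM2, and ISG15 (24.1 ± 6.51), IFI16 (22.2 ± 4.33), TRIM22 (18.9 ± 2.93) and IFITM1 (16.0 ± 11.3) overlapped in their spread. IFI6 was 15.7 ± 13.5 FPKM in iEC and 7.38 ± 3.04 FPKM in iREC (all SD, n = 4).

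The spread over the iEC samples was wide for these genes. The median SD of log2 CPM over the 4 iEC samples was 0.70 for the 39 members and 0.31 for all genes tested. Over the 4 iREC samples the values were 0.36 and 0.28. The iEC SD exceeded the iREC SD in 33 of 39 members, beside 52.7% of all genes. OAS2 (SD 2.27), IFI44L (2.07), MX1 (1.82), GBP1 (1.81), EPSTI1 (1.71), IFITM1 (1.70), IFIT1 (1.62) and IFI44 (1.59) varied most in iEC, and IFI16 varied least (0.16). Several of these SDs rest on few reads and so on the prior count. Counts in iEC C and D were 0 and 0 for IFI44L and GBP1, 1 and 1 for EPSTI1, 2 and 3 for IFITM1 and 7 and 1 for OAS2. The median iEC SD of the members was 0.75 with a prior count of 0.5 and 0.63 with 5. It was 0.56 for the 31 members of the stricter filter.

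Sample iEC F was the highest iEC sample for 31 of 39 members (79.5%), beside 32.3% of all genes tested. Its median difference from the mean of the other 3 iEC samples was 1.02 on the log2 scale for the members and -0.025 for all genes. In 18 of the 39 (46.2%) it was at least 2-fold above every other iEC sample, beside 1.99% of all genes tested. These 18 were ISG15, HERC6, IFIT1, IFIT2, IFIT3, OAS1, OAS2, SAMD9L, MX1, GBP1, GBP2, IFITM1, BST2, IFI6, IFI35, IFI44, IFI44L and EPSTI1. Of the 15 with a promoter window, 9 held the longer ISRE form, and of the 16 other tested members with a window, 6 did. The core was held by 11 of the 15 and by 11 of the 16. The 18 were picked by these same values, and the promoter counts are of few genes and carry no test. IFI35, which binds NMI, shows the high level in iEC F: 3.71, 3.03, 8.997 and 23.4 CPM in iEC C to F, against 6.54, 6.28, 6.96 and 6.81 CPM in iREC C to F. IFIT3 was 13.3, 16.8, 15.3 and 47.5 CPM in iEC C to F and 12.7, 14.99, 14.6 and 12.8 CPM in iREC C to F. In both genes the iREC samples were close together and iEC F alone exceeded the rest by more than 2-fold.

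The other iEC samples were also ordered. Sample iEC C was the lowest of the group for 20 of 39 members, beside 20.6% of all genes, and iEC D was the lowest for 13, beside 24.4%, whereas iEC F was the lowest for 1, beside 34.9%. The mean log2 CPM of the 39 members was 2.31, 2.53, 2.92 and 4.02 in iEC C to F and 3.56, 3.55, 3.53 and 3.35 in iREC C to F. In this mean the iREC samples spanned a small part of the iEC range, and iEC F alone among the iEC samples lay above them. Opposite shifts cancel in it: iREC C differed from the mean of the other iREC samples by 2.22 for OAS2 and -2.79 for IFITM1. The mean log2 CPM of the markers ISG15, MX1 and IFI6 was 2.54, 2.47, 3.43 and 5.21 in iEC C to F. In iREC C to F it was 3.80, 2.78, 2.37 and 3.13, so iEC E lay within the iREC range. The 8 exceptions, for which iEC F was not the highest iEC sample, were USP18, HERC5, STAT2, IRF9, IFI16, OAS3, ISG20 and IFI27. No iREC sample was the highest of its group for most members. The highest was iREC E for 14 members, iREC C for 13, iREC D for 7 and iREC F for 5, beside 28.6%, 25.1%, 13% and 33.3% of all genes. Single members did stand out in iREC C. It was the highest iREC sample for ISG15, MX1 and IFI6, and for USP18 and OAS2. It was also the lowest for 14 members, such as IFITM1 and BST2, beside 23% of all genes.

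**Figure D3:**
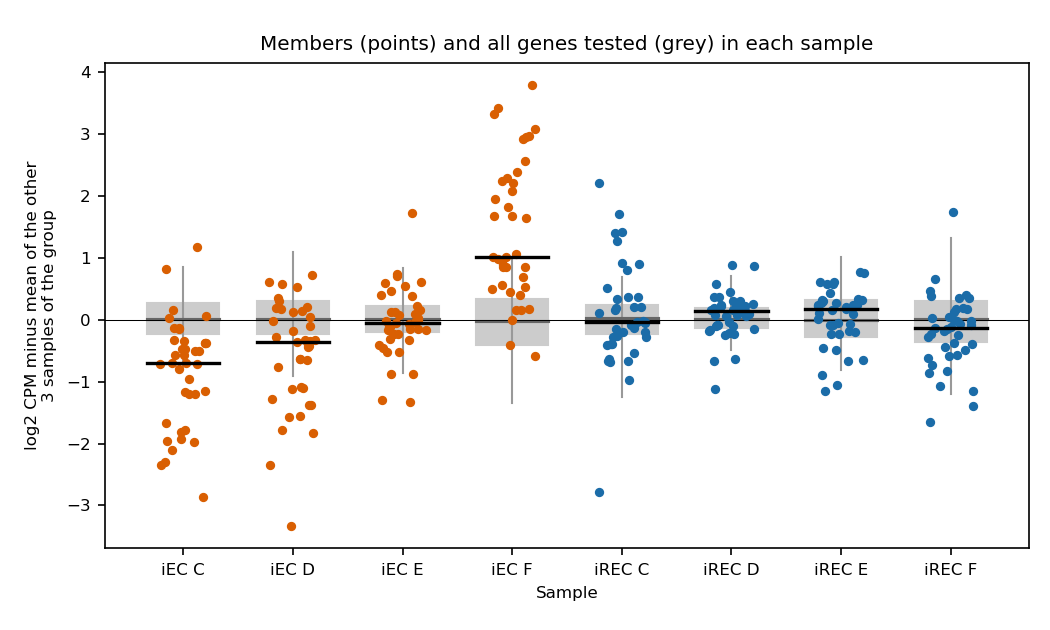
For each of the 8 samples, points give each tested member's log2 CPM minus the mean of the other 3 samples of its group, and grey bars give the spread over all genes tested. In iEC F the member points are shifted upwards, with a median of 1.02, while the grey bar stays around 0.

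Other measures also differed in iEC F, and their part in this shift was not tested. Among iEC samples it had the fewest genes detected (20976, against 22430 to 23039) and the highest sums of epithelial markers (1230 CPM, against 422 to 722) and of mural and mesenchymal markers (491 CPM, against 235 to 280). KRT8 was 598 CPM in iEC F and 145 to 294 CPM in the other iEC samples, and COL3A1 was 122 CPM against 3.71 to 27.1. In iREC F these sums were 4936 and 4575 CPM, and the mean log2 CPM of the members was 3.35, the lowest of the iREC group. The endothelial sum of iEC F, 8854 CPM, was within the range of the other iEC samples, 7552 to 9574 CPM. The leukocyte genes PTPRC and CD68 had no read in any iEC sample, including iEC F. In iREC, PTPRC was 0.794 to 2.75 CPM and CD68 at most 0.0654 CPM, and the sum of the 8 leukocyte markers listed, mostly RUNX1, was 16.3 to 19.8 CPM against 24.8 to 47.6 CPM in iEC.

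Leaving out iEC F changed the comparison of the groups. Fold changes were larger (more positive) in 36 of the 39 members, the sign changed in 11, and 26 rather than 19 were positive. The median was then 0.34, beside 0.021 over all genes tested in that fit. Higher in iREC were 11 members, beside 12.7% of all genes tested in that fit, and lower were 3, beside 10.3%. Newly called were TRIM22 (log2 fold change 1.40, adjusted p 0.0222), IFIT1 (1.64, 0.0163), IFIT2 (2.25, 0.00971) and IFIH1 (0.89, 0.0436). The calls of DDX58, SAMD9 and SAMD9L ended. Leaving out iREC F as well gave 12 higher and 3 lower, 15 in all, beside 27.4% of all genes tested in that fit, with STAT2 added to the higher ones. This removal of samples was chosen with the values known. As iEC F was the highest iEC sample for 31 of the 39 members, an upward shift of their fold changes was set in advance.

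**Figure D4:**
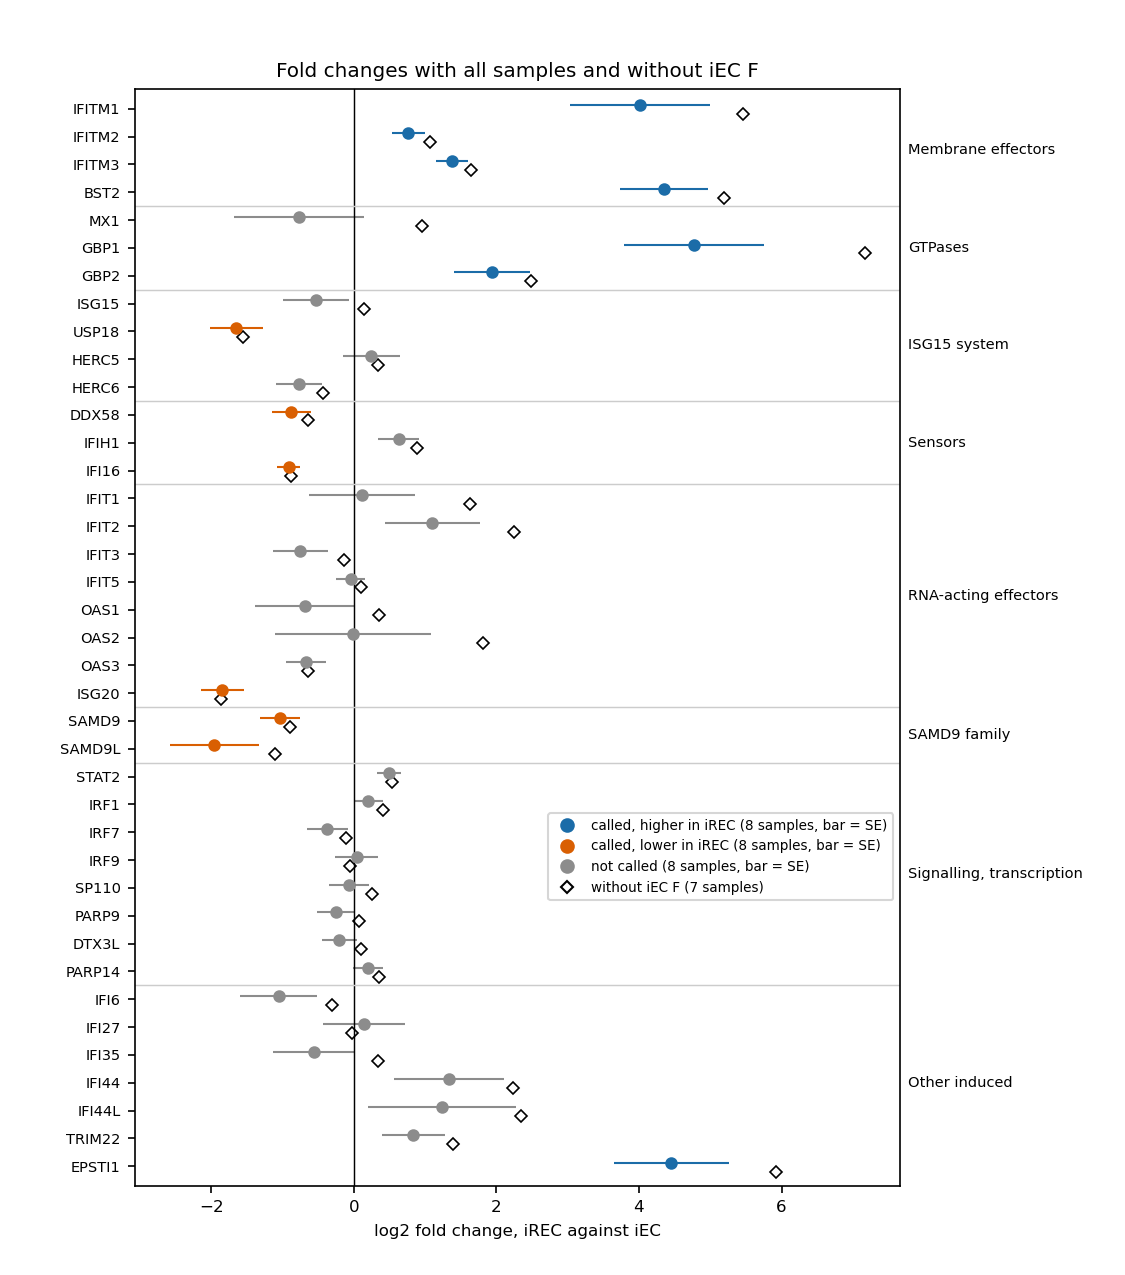
The log2 fold change of each tested member, iREC against iEC, is plotted with all samples, with its standard error, and without iEC F. Without iEC F most points lie further to the right, and those of ISG15 and MX1 cross 0.

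The genes of the pathway around these targets were taken from lists of ligands, receptors and kinases, inducers, negative regulators and other interferon targets. Of 61 tested, 8 were called higher and 12 lower, 20 in all (32.8%, beside 25% of all genes tested). Without iEC E, 12 were called, beside 18.3% of all genes tested in that fit, and without iREC D 13, beside 17%. Of the ligands, IFNE had 3 counts in 1 iEC sample and IFNG had 6 and 4 counts in iREC D and E. Of the 21 ligands looked up, only these 2 were listed in the deposited gene table, where the lowest total count of a gene was 2. Why the others are absent is not given in the sources used here. Of 10 genes tested on the list of receptors and kinases, 2 were lower and none higher in edgeR's test, and 3 of the 10 had an unadjusted p under 0.05. limma-voom gave the same counts, and DESeq2 without a filter also called IFNLR1, which had no read in iEC, higher. JAK1, the kinase shared by the interferon receptors, was measured at 665, 602, 986 and 899 CPM in iEC C to F and at 250.8, 288, 329 and 209 CPM in iREC C to F. The groups were far apart. This gave a log2 fold change of -1.55 ± 0.20 (SE), with an adjusted p of 0.000718. IFNGR2, the signalling chain of the gamma receptor, was lower by less (log2 fold change -0.49 ± 0.14, adjusted p 0.0314). IFNAR1 stood at 109 ± 8.11 CPM in iEC against 86.4 ± 12.9 CPM in iREC (SD, n = 4 each, adjusted p 0.0895).

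Among 12 tested inducers, 2 were higher and 3 lower, beside 13.2% and 11.7% of all genes tested. TLR4, the receptor for bacterial lipopolysaccharide, stood at 58.6 ± 8.46 CPM in iEC against 157 ± 39.0 CPM in iREC (SD, n = 4 each; log2 fold change 1.42 ± 0.19, adjusted p 0.000899). TLR3, a receptor for double-stranded RNA, was low in both groups and higher in iREC (log2 fold change 2.66, adjusted p 0.00394). The adaptors MYD88 and TICAM1 and the transcription factor IRF3 were lower, by log2 fold changes of -0.67, -0.75 and -0.44. Among 13 negative regulators, RNF125 was higher (log2 fold change 1.18), and SAMHD1 (-0.97), which depletes nucleotides, and IRF2 (-0.49), a repressor at the ISRE, were lower.

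Among 26 other interferon targets tested, 5 were higher and 5 lower, beside 13.2% and 11.7% of all genes tested. PLSCR1, a scramblase with antiviral activity, stood at 27.8 ± 5.73 CPM in iEC against 87.1 ± 11.3 CPM in iREC (SD, n = 4 each; log2 fold change 1.65 ± 0.18, adjusted p 0.000262). TRIM25, the ubiquitin ligase that activates RIG-I, stood at 177 ± 46.8 CPM in iEC against 53.3 ± 13.1 CPM in iREC (SD, n = 4 each; log2 fold change -1.73 ± 0.24, adjusted p 0.000864). Also higher were UBA7 (log2 fold change 1.74), the enzyme that activates ISG15 for conjugation, TNFSF10 (2.03), the death ligand TRAIL, and GBP4 (4.03). The other 4 lower genes were SHISA5 (-0.72), APOBEC3C (-1.24), SP100 (-1.24) and NMI (-0.83).

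The authors' deposited table of their own comparison gave an adjusted p under 0.05 for 13 members, 7 higher and 6 lower in iREC. They are the 13 called here.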

How the data were processed

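Poly-A RNA was sequenced from 4 iEC and 4 iREC samples of 1 stem cell line, with a second cDNA strand made with dUTP, per the labels' protocols. The submitters' processing notes name fastp, HISAT2 2.0.5 and the hg38 build. The counting program, and whether it used strand, are not given in the sources used here. The authors deposited 1 table with raw read counts, FPKM, log2 fold changes and p-values per gene, per the file headers. FPKM, which the authors scaled by gene length, was used only to compare levels between genes. The 8 columns of per-sample normalised values in that table were not used. All 30386 genes matched GENCODE 29 by start and end.

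From the counts, genes were kept by filterByExpr of edgeR 4.0.16, TMM scaling was applied, and iREC was tested against iEC with edgeR's quasi-likelihood F-test over all 8 samples, with Benjamini-Hochberg adjustment over 15330 genes. The script was checked on simulated data. Log2 CPM used a prior count of 2. Alternatives were DESeq2 1.42.0, its size factors, limma-voom 3.58.1, no filter, a stricter filter (1 CPM in all samples of either group, mean count at least 50), other prior counts, the letter as a block, and each sample left out.

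The members and lists were chosen with earlier results of these data known, so counts over them are descriptions. The rule for named genes took ISG15, MX1 and IFI6, every called member, the 8 members highest in FPKM, the 8 with the largest iEC SD, members that did not pass the filter, and at most 6 called genes of each pathway list by mean CPM. HERC5, HERC6, STAT2, IRF9, DTX3L, PARP9, IFIH1, IFIT2, IFIT3, OAS1, OAS3, IFI27, IFI35, IFNAR1, IFNLR1, UBA7, TNFSF10 and GBP4 were named after their values were seen. Values of some pathway genes that enter the counts are not reported here.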

Additional observations from a re-analysis of the deposited data

Results flagged for a closer look

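On the log2 CPM scale, among 78 sets of 4 samples (39 members in 2 groups), the highest or lowest sample was far from the others in 2, where about 3.9 are given by chance at 1 in 20. Both were in iEC F. HERC6 was 14.2 CPM in iEC F and 6.63 to 6.87 CPM in the other iEC samples, a gap on the log2 scale of 0.954 of the range of the group. IFITM3 was 500.2 CPM in iEC F and 268 to 294 CPM in the other iEC samples, a gap on the log2 scale of 0.853 of the range. The share depends on how close the other 3 samples lie, so members that are 2-fold or more higher in iEC F, such as MX1 and BST2, did not all pass it.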

How the results depend on the processing

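The calls of USP18, IFI16, ISG20, GBP1, IFITM3, BST2 and EPSTI1, 7 of the 13, were made under every alternative run. Leaving out each sample in turn gave 7 to 14 members called, 4 to 11 higher and 3 to 6 lower in iREC. In these fits 12 to 20 pathway genes and 12 to 24 marker genes were called. The share called over all genes tested also moved, from 17% without iREC D to 26.7% without iREC F. With both samples lettered F left out, an alternative added after seeing the data, 12 members were higher and 3 lower. Of 39 members tested, 11 were called with DESeq2 size factors and 11 with limma-voom, beside 24.8% and 24.6% of all genes. The stricter filter gave 11 of 31 members, beside 27.4% of all genes. No filter gave 12 of 44, beside 12.8%. DESeq2 called 13 of the 44 members listed, beside 16.4% of all genes listed. It gave no adjusted p for some genes, IFIT1 among them, so both shares are of genes listed and not of genes tested. With the letter as a replicate block 10 of 39 members were called (6 higher, 4 lower), beside 21.7% of all genes. Deviations of samples with the same letter correlated at 0.17, -0.079, 0.029 and 0.25 for C to F, and not every sample correlated best with its own letter. What the letters mark is not given in the sources used here, so the samples were not treated as pairs. Among the members named by the rule, 4 that were not called turned direction under some alternatives, and the cause was not tested. Without iEC F, 11 of all 39 tested turned. ISG15 was 0.14 without iEC F and 0.068 without both samples lettered F, where MX1 was 0.95 and 0.93. OAS2 was 1.09 with limma-voom, 0.76 with the replicate block, 2.08 without both samples lettered F, 1.81 without iEC F and 0.090, 0.26 and 0.26 without iREC D, E or F, and ran from -0.98 to 1.81 with single samples left out. IFIT1 ran from -0.25 (without iEC C) through -0.18 (without iEC D) and -0.15 (without iEC E) to 1.64 (without iEC F). For ISG15 the range was -0.81 to 0.14 and for MX1 -1.38 to 0.95. The share of member promoters with an ISRE was 44.1% for the longer form and 67.6% for the core. At these totals, RSAD2, OASL and CMPK2 had at most 2 counts in any sample and were tested only where no filter was applied, so differences in them were not detectable at this depth.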
